A study of Sus scrofa with 6 samples.

Results

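The let-7 family with its relative miR-98 was examined in skin of Xiang pigs, a small Chinese breed. The members are the 9 rows of the miRNA table that carry a let-7 or miR-98 name, out of 898 rows in all, of which 280 have a miRBase-style porcine name and 618 a predicted identifier. They are ssc-let-7a, ssc-let-7c, ssc-let-7d-5p, ssc-let-7d-3p, ssc-let-7e, ssc-let-7f, ssc-let-7g, ssc-let-7i and ssc-miR-98. They were picked by name, with earlier results of these data known. Small RNA had been sequenced from skin labelled white (3 libraries: S02, S06, S07) or black (3 libraries: S03, S04, S05), all of the Xiang strain, cleared of hair and disinfected and then stored frozen in an RNA preservative. No genotype, treatment of the animals, age, sex, body site or sequencing batch is given in the labels. Nothing in them ties a library to an animal, so a p-value here is set against differences among libraries that need not be separate animals. The series addressed genes and miRNAs that affect melanin production.

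MicroRNAs are short RNAs that guide Argonaute proteins to messenger RNAs and lower their output, mostly through the seed, a stretch near their 5′ end. The let-7 miRNAs and miR-98 share 1 seed and so overlap in their targets, which include HMGA2, LIN28 and RAS genes in mammals. They are scarce in early embryos, where LIN28 proteins block the maturation of let-7 precursors, and become abundant as tissues differentiate. ssc-let-7d-3p is the exception among the 9, since it comes from the opposite arm of the let-7d hairpin and does not carry the let-7 seed.

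The 9 rows matched 10 precursors in the RefSeq gene table of Sscrofa11.1, and most of these lie in small clusters. On chromosome 3, MIRLET7A-2 (43465667 to 43465758), MIRLET7F-2 (43466034 to 43466130) and MIRLET7D (43468501 to 43468596) follow each other outside annotated genes. MIRLET7A-1 lies on chromosome 9 at 49152586 to 49152665, with MIR100 starting after a gap of 5243 bases. On chromosome X, MIR98 (46302381 to 46302460) and MIRLET7F-1 (46303245 to 46303327) both lie within HUWE1, a ubiquitin ligase gene. MIRLET7C lies on chromosome 13 at 181303209 to 181303302, a gap of 646 bases from MIR99A and within the same gene, LOC106508546. MIRLET7E lies on chromosome 6 at 58332042 to 58332121 between MIR125A and MIR99B. MIRLET7G (chromosome 13, 34406140 to 34406219) lies within WDR82, and MIRLET7I (chromosome 5, 27252802 to 27252886) lies between MON2 and PPM1H. The table does not say whether these positions are exonic or intronic. ssc-let-7a and ssc-let-7f each have 2 precursors that give 1 row, so their reads cannot be assigned to a locus, and reads of near-identical members can be exchanged by the mapping.

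The values are RPM, listed miRNA reads scaled to an equal library total, from libraries of 6454685 to 10165949 reads. The least abundant member, ssc-let-7d-3p, still had 343 to 670 reads per library, and all 9 passed the filter on low counts. Along the second principal component of all tested miRNAs, with 20.3% of the variance, S02 had a score of 9.24, while S06 had -2.77 and S07 -6.10, so calls are also given without S02. The epithelial ssc-miR-205, a marker of keratinocytes, was present in every library, at 14898 to 22514 RPM in white and 11483 to 16639 RPM in black skin. Its groups overlapped, with a log2 difference of -0.47 (limma adjusted p = 0.204). Of the 10 epithelial marker names 5 have no row, among them miR-203.

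As a group the let-7 rows made up a smaller share of black skin libraries. Together they held 19.3% (S02), 20.3% (S06) and 22.6% (S07) of the miRNA reads in white skin. The black libraries had 14.9% (S03), 16.1% (S04) and 15.3% (S05). Every black library lay below every white one. The means were 20.7 ± 1.68% and 15.4 ± 0.610% (SD, n = 3 each), a total 1.35 times higher in white skin, or a mean difference of -0.43 in log2. As the members were chosen with results of these data known, no p is given for the sum. Leaving out 1 library, the difference ran from -0.48 (without S02) to -0.36 (without S07). Under the other scalings tried it lay between -0.52 and -0.37.

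**Figure D1:**
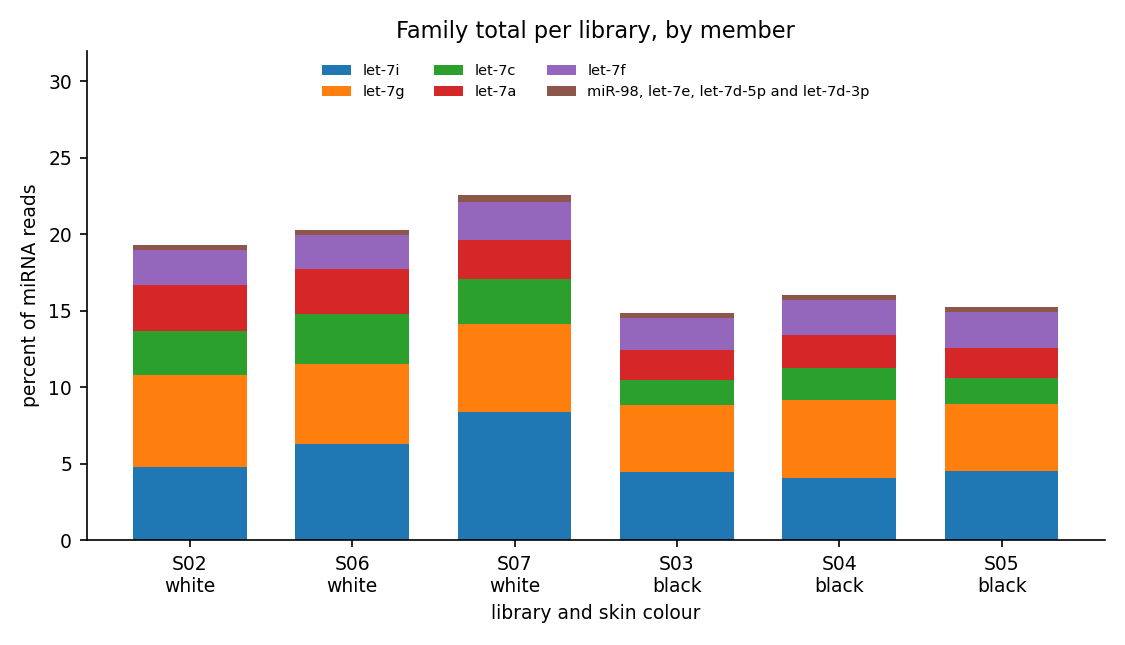
Percent of miRNA reads held by the let-7 family and miR-98 in each library (y axis, from 0), stacked by member with the 4 scarce ones joined, and the 3 white and the 3 black skin libraries stand along the x axis. White bars reach 19.3 to 22.6% and black bars 14.9 to 16.1%, and the segment of let-7f is nearly as tall in black as in white skin.

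RPM are shares of a fixed total, so a rise elsewhere lowers them. The smooth muscle ssc-miR-143-3p rose from 28574 ± 3838 to 69866 ± 10297 RPM (SD, n = 3; limma with Benjamini-Hochberg adjustment, adjusted p = 0.00314). With that row left out of the total, the family held 16.2 to 17.1% in black and 19.9 to 23.3% in white skin. The log2 difference of the family total was then -0.37, against -0.43 with the row kept. That row was chosen after its values were seen, and the part of rises in other rows was not tested. The summed smooth muscle markers (4 rows, 1 called higher) held 26728 to 34192 RPM in white and 64998 to 84502 RPM in black skin. Most of that sum was ssc-miR-143-3p itself, the called row, at 24337 to 31818 RPM in white and 62317 to 81596 RPM in black skin. The other rows of that list were not called. Markers of other cells also stood apart between the groups. The endothelial miR-126 arms (2 rows, both called higher) held 17322 to 23899 RPM in white and 28989 to 35451 RPM in black skin. ssc-miR-204, the melanocyte-enriched marker with a row, measured 57.7 to 71.1 RPM in white and 88.5 to 135.1 RPM in black skin, while miR-211 has no row. The summed epithelial (5 rows), leukocyte (4), erythroid (3), striated muscle (6) and mesenchymal (5) markers overlapped between the groups. Among their rows 1 leukocyte row was called higher and 1 mesenchymal row lower in black skin. In white and black skin, epithelial sums ran from 23475 to 34650 and 18739 to 25754 RPM. Mesenchymal sums ran from 29774 to 44259 and 25075 to 34133 RPM, and erythroid sums from 1723 to 4914 and 994 to 4298 RPM. Leukocyte sums ran from 590 to 1321 and 901 to 1570 RPM, and striated muscle sums from 678 to 2017 and 959 to 1604 RPM. The part of these cells in the let-7 values was not tested, and in bulk skin fewer cells of a type and less RNA per cell cannot be told apart.

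The mean totals differed by -53513 RPM, and of this ssc-let-7i accounted for 39.1%, ssc-let-7c for 22.3%, ssc-let-7g for 20.5% and ssc-let-7a for 15.4%. The remaining 5 rows accounted for little, with 1.62% for ssc-let-7f and 0.461% for ssc-let-7d-5p. In the fit over all miRNAs (limma on log2(RPM + 1), Benjamini-Hochberg adjustment over 454 tested miRNAs), 1 of the 9 members was called at an adjusted p under 0.05 and it was lower in black skin. Over all tested miRNAs 7.05% were called in either direction and 3.08% were called lower. An unadjusted p under 0.05 was found for 4 members, each lower in black skin, against 10.6% of all tested miRNAs lower and 25.6% in either direction. Groups did not overlap for 5 members, each lower in black skin, against 13.9% of all tested miRNAs lower without overlap and 27.3% in either direction. The difference was below 0 for 8 of the 9, against 50% of all tested miRNAs. The median difference was -0.31 for the members and 0.00 for all tested miRNAs. These 9 values are not independent, since members share loci, reads and the same libraries.

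**Figure D2:**
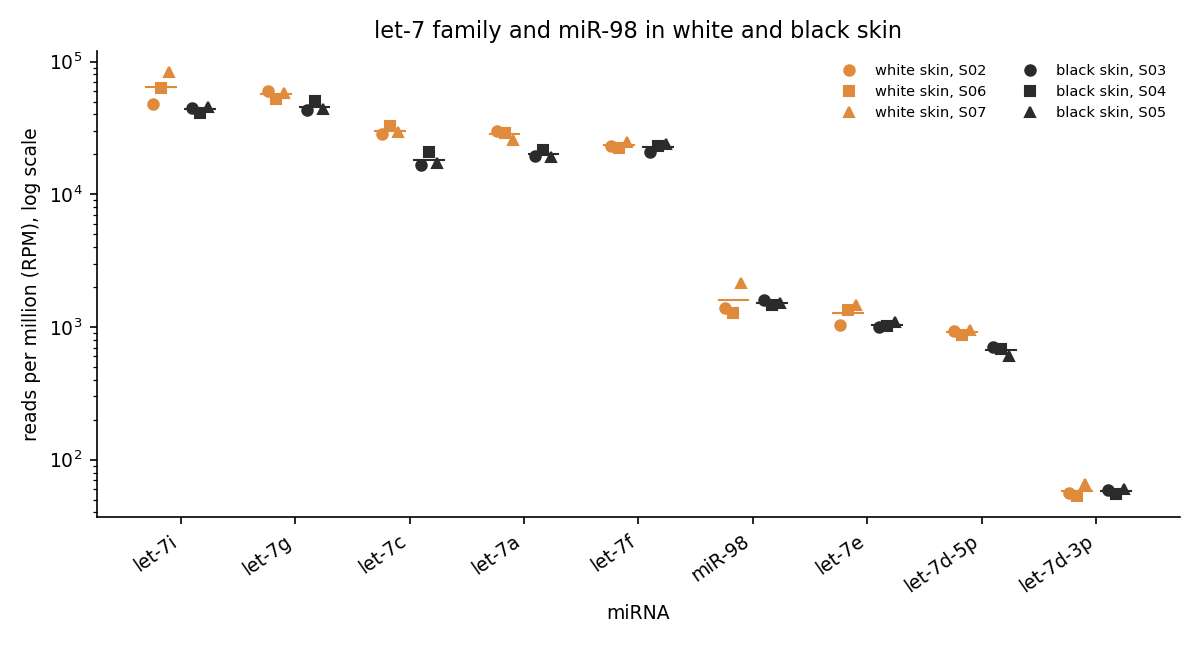
RPM of each member on a log axis, with 1 point per library, white skin in orange and black skin in black, and a line at each group mean. For let-7i, let-7g, let-7c, let-7a and let-7d-5p every black point lies below every white point, while let-7f, miR-98, let-7e and let-7d-3p overlap.

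ssc-let-7c was the called member. White skin held 28482 (S02), 32530.0 (S06) and 29472 RPM (S07) of it, and black skin 16685 (S03), 20805 (S04) and 17221 RPM (S05). The lowest white value stood well above the highest black one. The means were 30161 ± 2110 and 18237 ± 2240 RPM (SD, n = 3), 1.65-fold higher in white skin, and the log2 difference was -0.73 with a standard error of 0.15 (95% confidence interval -1.08 to -0.38, limma adjusted p = 0.0318). edgeR and DESeq2 on the recovered reads also called it (adjusted p = 0.0332 and 0.0442), where they called 6.61% and 11.7% of all tested miRNAs. The call held without S02 (adjusted p = 0.0324) or S04 (0.0367) and was lost without S03 (0.107), S05 (0.109), S06 (0.116) or S07 (0.0574), and without limma's intensity trend (0.0942).

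ssc-let-7a, which comes from the chromosome 3 cluster and from beside MIR100, showed the next firmest difference. Its levels were 30039, 29141 and 25675 RPM in white skin (S02, S06, S07) and 19293, 21754 and 19097 RPM in black skin (S03, S04, S05). The groups did not overlap, and the mean was 1.41-fold higher in white skin, yet the difference of -0.50 (standard error 0.15, limma adjusted p = 0.0804) missed the threshold. It passed with rows of a predicted identifier left out before scaling (-0.59, adjusted p = 0.0391). That setting both rescales the values and tests fewer rows, the 242 named miRNAs, whose median was -0.14 there and -0.05 in the reported scaling. It also passed with values rescaled on the rows other than the 9 members (-0.59, limma adjusted p = 0.0405). Taking the members out of the total lowers every row in black relative to white skin, since their sum is lower there. The median of all tested miRNAs was -0.08 in that setting and 0.00 as reported. Set against that median, ssc-let-7a lay at -0.51 and -0.50.

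ssc-let-7i and ssc-let-7g were the most abundant members, in places 5 and 6 of all 898 rows by mean level. ssc-let-7i spread widely in white skin, at 47932 (S02), 62722 (S06) and 83560.2 RPM (S07), and little in black skin, at 44945 (S03), 40899 (S04) and 45601 RPM (S05). S07 was the highest value of any member in any library, and S02 lay just above the black libraries. The coefficient of variation was 27.6% in white and 5.81% in black skin. The mean was 1.48-fold higher in white skin, and the difference of -0.53 (standard error 0.21) did not pass (limma adjusted p = 0.150). It was -0.73 without S02, where it passed (adjusted p = 0.0418), and -0.33 without S07 (adjusted p = 0.308).

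Levels of ssc-let-7g were 60223, 52692 and 57675 RPM in white skin (S02, S06, S07) and 43309.7, 50699.9 and 43606 RPM in black skin (S03, S04, S05). S04 came close to the lowest white library, S06. The mean was 1.24-fold higher in white skin, a difference of -0.31 (standard error 0.15) that did not pass (limma adjusted p = 0.221). The scarce ssc-let-7d-5p was far less abundant, with 926.0, 868.2 and 944.3 RPM in white and 710.4, 679.7 and 607.5 RPM in black skin, in the same library order. Its groups stood apart, and the difference was -0.46 (standard error 0.17, limma adjusted p = 0.134).

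The other 4 members overlapped between the groups. ssc-let-7f, which differs from ssc-let-7a by little in sequence, measured 23032, 22487 and 24931 RPM in white skin (S02, S06, S07) and 20956, 23155 and 23742 RPM in black skin (S03, S04, S05). The difference was -0.05, with an interval from -0.38 to 0.27 (limma adjusted p = 0.869). ssc-miR-98, which shares the HUWE1 locus with 1 of the let-7f precursors, measured 1401, 1271 and 2134 RPM in white and 1587, 1459 and 1511 RPM in black skin, with S07 again the highest.

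ssc-let-7e, the member encoded beside miR-99b and miR-125a, measured 1041, 1331 and 1454 RPM in white and 999.9, 1018 and 1083 RPM in black skin. Only S02 among the white libraries lay inside the black range. ssc-let-7d-3p, the passenger arm without the let-7 seed, gave 55.8, 53.1 and 65.9 RPM in white and 59.1, 55.5 and 60.5 RPM in black skin. Differences of the last 3 were -0.04, -0.29 and 0.01 (limma adjusted p = 0.926, 0.368 and 0.980). Under other scalings the sign of ssc-let-7f, ssc-miR-98 and ssc-let-7d-3p turned at values near 0, while the other 6 members were below 0 in black skin under every alternative run.

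**Figure D3:**
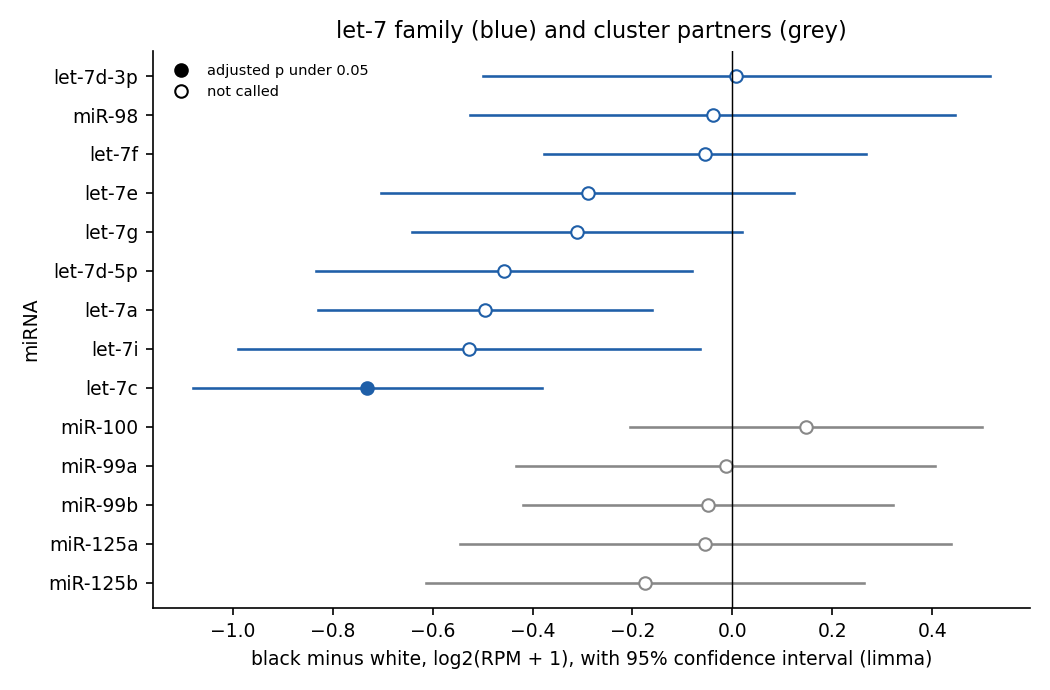
Black minus white difference on the log2(RPM + 1) scale with its 95% confidence interval (limma) for the 9 members (blue) and 5 cluster partners (grey), where filled points have an adjusted p under 0.05. Only let-7c is filled, at -0.73, and the partners lie between -0.18 and 0.15.

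Which adjusted p-values hold across settings is shown by the plot of all fits. ssc-let-7c was called in 13 of 14 other settings with all 6 libraries, and in 2 of 6 fits with 1 library left out. ssc-let-7a was called in 2 of 14 and 0 of 6, and ssc-let-7i in 0 of 14 and 1 of 6. ssc-let-7d-5p, ssc-let-7g, ssc-let-7e, ssc-let-7f, ssc-miR-98 and ssc-let-7d-3p were called in none of these 20 fits, with lowest adjusted p of 0.0616 for ssc-let-7d-5p and 0.110 for ssc-let-7g.

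**Figure D4:**
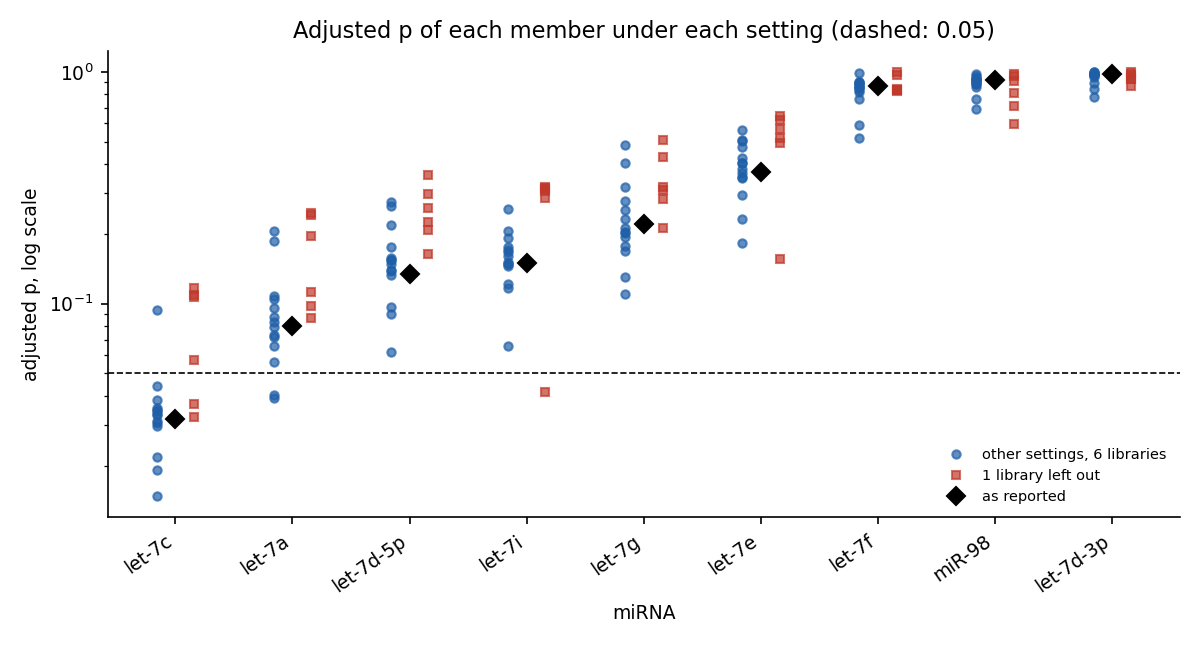
Adjusted p (log axis) of each member in the reported fit (black diamonds), in other settings with 6 libraries (blue) and with 1 library left out (red), with the threshold of 0.05 dashed. let-7c is below the line in most settings and above it in 4 of the 6 red points, and let-7a and let-7i cross it only in 2 and 1 fits.

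Within the family, 5 members made up nearly everything. ssc-let-7i, ssc-let-7g, ssc-let-7a, ssc-let-7c and ssc-let-7f held 97.7 to 98.3% of the family's reads in each library. miRNAs are of nearly equal length, so RPM compare levels between them, although ligation in library preparation favours some ends over others. In white skin the means ran from ssc-let-7i (64738 ± 17900 RPM) and ssc-let-7g (56864 ± 3831) over ssc-let-7c (30161 ± 2110) and ssc-let-7a (28285 ± 2305) to ssc-let-7f (23483 ± 1283; SD, n = 3). The first 2 overlapped, as did ssc-let-7c and ssc-let-7a, and each pair stood apart from the next member down. ssc-miR-98 (1602 ± 465) and ssc-let-7e (1276 ± 212) overlapped, above ssc-let-7d-5p (912.8 ± 39.7) and ssc-let-7d-3p (58.3 ± 6.74; SD, n = 3).

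Black skin had another order in the middle of the family. The means were 45872 ± 4184 RPM for ssc-let-7g and 43815 ± 2546 for ssc-let-7i, with overlap, then 22618 ± 1469 for ssc-let-7f, 20048 ± 1480 for ssc-let-7a and 18237 ± 2240 for ssc-let-7c (SD, n = 3), where neighbours overlapped. ssc-let-7f took place 3 in each black library and place 5 in each white one. ssc-let-7c took place 5 in each black library and place 3 or 4 in each white one, and ssc-let-7a place 4 in all but S02. Among the scarce members ssc-miR-98 (1519 ± 64.2), ssc-let-7e (1034 ± 43.9), ssc-let-7d-5p (665.9 ± 52.8) and ssc-let-7d-3p (58.4 ± 2.57 RPM; SD, n = 3) did not overlap each other in black skin.

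Expressed as shares of the family total, 3 of the 9 members did not overlap between the groups. Divided by the same total, 38.8% of all tested miRNAs did not overlap, against 27.3% undivided. The family total is lower in black skin, so dividing by it raises other rows there, while the members make up that total. The count of members and the share of all rows are therefore not a like comparison. ssc-let-7f made up 11.9% of the family in S02 and no less than 11.0% in the other white libraries, and 14.1, 14.4 and 15.6% in black skin (S03, S04, S05). ssc-let-7c made up 14.7, 16.0 and 13.0% in white and 11.2, 13.0 and 11.3% in black skin. At 13.05% in S07 and 12.96% in S04 these groups all but touch. ssc-let-7d-3p made up 0.0281 ± 0.00166% of white and 0.0380 ± 0.00297% of black family reads (SD, n = 3), and the shares of the other 6 overlapped. ssc-let-7i ranged most, from 24.8 to 37.0% in white skin.

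To ask whether a member moved apart from the family, all 454 miRNAs were fitted again with values scaled to an equal family total. In that fit 0 of 9 members were called (limma, Benjamini-Hochberg), against 17.6% of all tested miRNAs (7.05% in the reported scaling). Scaling to a total that is lower in black skin raises other rows there, so shares of all tested miRNAs are not a like comparison here. An unadjusted p under 0.05 was found for 1 member, against 32.8% of all tested miRNAs (25.6% in the reported scaling). ssc-let-7f was that member, 0.37 above the family (95% confidence interval 0.03 to 0.72, adjusted p = 0.123). ssc-let-7c lay at -0.30 (interval -0.67 to 0.07, adjusted p = 0.236) and ssc-miR-98 at 0.39 (interval -0.08 to 0.86, adjusted p = 0.232). These intervals are wide beside the family's own difference of -0.43, and the abundant members are also part of the total they are set against.

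Precursors in a cluster are often transcribed together, so the miRNAs encoded beside let-7 precursors were set beside them. All 5 listed partners (ssc-miR-99a, ssc-miR-99b, ssc-miR-100, ssc-miR-125a and ssc-miR-125b) overlapped between the groups. None was called by limma, edgeR or DESeq2, and 0 had an unadjusted p under 0.05. ssc-miR-99a, beside ssc-let-7c, measured 39100.5, 30201 and 29769 RPM in white (S02, S06, S07) and 28813, 39787 and 29814 RPM in black skin (S03, S04, S05), a difference of -0.01 (interval -0.43 to 0.41, adjusted p = 0.971). ssc-miR-100, beside 1 of the let-7a precursors, gave 0.15, and ssc-miR-99b, ssc-miR-125a and ssc-miR-125b gave -0.05, -0.05 and -0.18. These differences moved with single libraries. Leaving out 1 library, ssc-miR-125b ran from -0.30 (without S07) to -0.02 (without S02) and ssc-miR-100 from 0.08 (without S06) to 0.25 (without S07). ssc-miR-202 was included as a relative of let-7 by seed, but sequences were not used here to tell which arm carries that seed. Its 3p arm was near the limit of detection, with 1 read in S02, S06 and S04 and 0 in the others. Its 5p arm, the only 1 tested, had 18 to 52 reads per library (difference 0.22, limma adjusted p = 0.730).

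Ratios between neighbours were then tested, an analysis chosen after the values had been seen. Log2 ratios of named miRNAs with precursors within 10000 bases gave 95 pairs, of which 28 (29.5%) passed (limma, Benjamini-Hochberg). Of the 10 pairs with a member 3 passed, a share of 30.0% that is near that of all pairs. ssc-let-7c to ssc-miR-99a stood at 0.728, 1.08 and 0.990 in white (S02, S06, S07) and at 0.579, 0.523 and 0.578 in black skin (S03, S04, S05). The log2 difference was -0.72 (standard error 0.15, interval -1.04 to -0.39, adjusted p = 0.00526), and it passed without each library in turn (adjusted p up to 0.0462).

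ssc-let-7a fell against ssc-miR-100, from ratios of 2.62, 2.66 and 1.84 in white to 1.42, 1.58 and 1.50 in black skin (-0.64, standard error 0.16, limma adjusted p = 0.0138). That call was lost without S03 (adjusted p = 0.0763) or S06 (0.0692). ssc-let-7a to ssc-let-7f, neighbours on chromosome 3, was above 1 in every white library (1.30, 1.30 and 1.03) and below 1 in every black one (0.921, 0.939 and 0.804). The difference was -0.44 (standard error 0.14, limma adjusted p = 0.0305). Without 1 library it passed only on leaving out S07 (adjusted p = 0.00864), and was lost without S02 (0.105), S03 (0.0763), S04 (0.0543), S05 (0.0815) or S06 (0.184). ssc-let-7f to ssc-miR-98, from neighbouring precursors in HUWE1, overlapped at 11.7 to 17.7 in white and 13.2 to 15.9 in black skin (-0.02, interval -0.42 to 0.39, limma adjusted p = 0.958).

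The remaining pairs did not pass. ssc-let-7a to ssc-let-7d-3p gave 538.8, 548.4 and 389.6 in white and 326.3, 391.9 and 315.8 in black skin, with S04 just above S07 (-0.50, limma adjusted p = 0.109), and it passed without S07 (-0.66, adjusted p = 0.0447). ssc-let-7e to ssc-miR-99b gave 0.849, 1.01 and 0.988 in white and 0.816, 0.796 and 0.789 in black skin, lower in every black library (-0.24, limma adjusted p = 0.435). ssc-let-7d-5p to ssc-let-7f gave 0.0402, 0.0386 and 0.0379 in white and 0.0339, 0.0294 and 0.0256 in black skin, again without overlap (-0.40, limma adjusted p = 0.109). ssc-let-7a to ssc-let-7d-5p, which share the chromosome 3 cluster, overlapped at 27.2 to 33.6 in white and 27.16 to 32.01 in black skin (-0.04, interval -0.42 to 0.34, limma adjusted p = 0.915). Against ssc-miR-125a, ssc-let-7e overlapped too (-0.24, limma adjusted p = 0.542), and so did ssc-let-7d-3p against ssc-let-7f (0.06, adjusted p = 0.887).

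**Figure D5:**
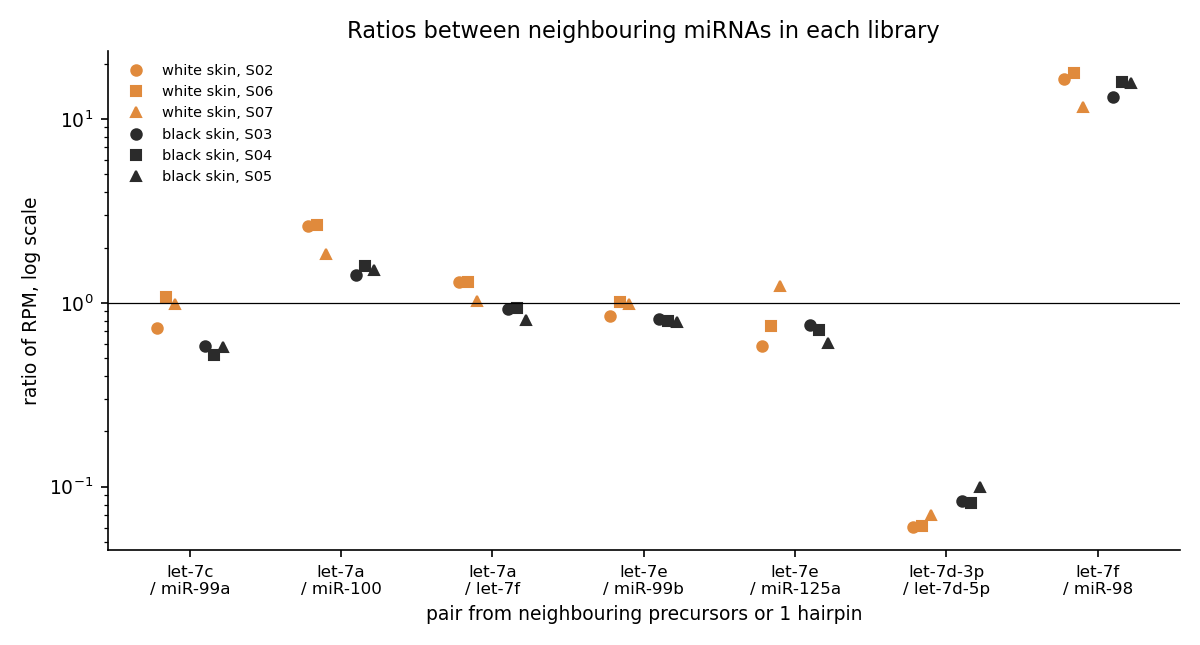
Ratio of RPM (log axis) between miRNAs from neighbouring precursors, and between the arms of let-7d, with 1 point per library (white skin orange, black skin black) and a line at 1. let-7a to let-7f lies at 1.03 to 1.30 in white and 0.804 to 0.939 in black skin, and let-7c to miR-99a at 0.728 to 1.08 and 0.523 to 0.579.

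Both arms of let-7d were listed, and the 5p arm was the abundant one throughout. The 3p to 5p ratio was 0.0602, 0.0612 and 0.0698 in white (S02, S06, S07) and 0.0832, 0.0817 and 0.0995 in black skin (S03, S04, S05). All black ratios were above all white ones. The log2 difference of 0.46 (standard error 0.23, interval -0.02 to 0.94) did not pass among 41 hairpins with both arms tested (limma adjusted p = 0.184), where 14.6% passed.

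Library by library, the members did not all deviate in 1 direction from their group means. In S07, ssc-let-7i and ssc-miR-98 lay above the white mean (0.41 and 0.45 in log2), and ssc-let-7a below it (-0.14). S02 had ssc-let-7i at -0.40 and ssc-let-7e at -0.28, with ssc-let-7a at 0.09. In black skin no member deviated by more than 0.20, the value of ssc-let-7c in S04.

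Outside the family, the patterns over the 6 libraries most like the family total, by Pearson r of log2(RPM + 1), were those of ssc-miR-455-3p (r = 0.990), ssc-miR-214 (0.985), ssc-miR-296-3p (0.975), ssc-miR-181b (0.956) and the predicted unconservative_1_48294 (0.949). ssc-miR-214, the 1 called row of the mesenchymal markers, fell from 497.2 ± 88.0 to 268.9 ± 42.1 RPM (SD, n = 3; limma adjusted p = 0.0408). The sum of those markers overlapped between the groups. ssc-miR-181b was also called lower (limma adjusted p = 0.0329). ssc-miR-455-3p (0.0978), ssc-miR-296-3p (0.111) and unconservative_1_48294 (0.139) were not called. The patterns most like ssc-let-7c were those of ssc-miR-224 (r = 0.993), ssc-miR-320 (0.990) and the predicted unconservative_5_628504 (0.977). ssc-miR-224 fell from 41.3 ± 11.4 to 8.38 ± 5.29 RPM (SD, n = 3; limma adjusted p = 0.0171). These r values describe 6 points in 2 groups that share libraries and scaling, and were picked as the highest of all tested rows outside the family. Among the members themselves, r with the family total was 0.940 for ssc-let-7c, 0.911 for ssc-let-7d-5p and 0.874 for ssc-let-7i, and only 0.554 for ssc-let-7f, 0.314 for ssc-miR-98 and 0.155 for ssc-let-7d-3p.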

How the data were processed

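The deposited table holds RPM, which the authors scaled so that each column sums to 1e+06; the unit was read from the values. The submitters' processing notes list Bowtie and Sscrofa11.1, with no step attached. Which program counted reads, and against which miRNA database, is not given in the sources used here. Whole reads were recovered: 100% of values per library were whole multiples of 1 read (tolerance 0.001). Here limma 3.58.1 (R 4.3.3), with an intensity trend, was run on log2(RPM + 1) for 454 miRNAs kept by edgeR 4.0.16's filterByExpr (minimum count 10, minimum total 15), with Benjamini-Hochberg adjustment and a threshold of 0.05. edgeR on recovered reads called 30 miRNAs and limma 32. Alternatives were DESeq2 1.42.0, limma-voom, other scalings, filters and pseudocounts, and leaving out each library. The fits were also run on simulated data with independent rows, which the members are not, and no support is drawn from that run. No pair of libraries agreed within sampling noise (smallest chi-square per degree of freedom 302.8). All value columns were used.

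Members and lists were chosen with earlier results of these data known. Named are the 9 members, cluster partners, miR-202 and the miRNAs most like the family total (5) and ssc-let-7c (3). From the marker lists, ssc-miR-143-3p, ssc-miR-204 and ssc-miR-205 were singled out after their values were seen, as were the neighbour ratios. Precursors came from a RefSeq gene table that matched 265 of 280 named miRNAs. Sequences were not used here.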

Additional observations from a re-analysis of the deposited data

How the results depend on the processing

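Leaving out the intensity trend gave 19 calls over all miRNAs and DESeq2 gave 53, against 32 as reported, and leaving out 1 library gave 7 to 41; the cause was not tested. Calls split into 18 higher and 14 lower as reported, 16 and 19 with predicted identifiers left out, 15 and 18 when rescaled on rows other than the members, and 13 and 17 with edgeR. Of the 9 members 2 were called with predicted identifiers left out and 2 when rescaled on other rows, 0 without the trend, and 0 to 2 without 1 library, in fits with fewer samples. The family total, which was not tested, kept its direction in every alternative run. The arm ratio of let-7d kept its direction and was not called in any of its alternatives. The counts of 0 members called relative to the family and 0 partners called did not change.

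Signs turned only at uncalled or untested values. ssc-let-7d-3p gave -0.022 with RLE factors, -0.080 with predicted identifiers left out, -0.085 rescaled on other rows, -0.0029 with limma-voom, -0.0023 with edgeR and -0.031 with DESeq2. Rescaled without ssc-miR-143-3p, a setting added after the data were seen, ssc-let-7f gave 0.0079 and ssc-miR-98 gave 0.023. Without 1 library, differences ran from -0.055 to 0.098 (ssc-let-7d-3p), -0.19 to 0.19 (ssc-miR-98), -0.25 to 0.049 (ssc-miR-125a), -0.16 to 0.11 (ssc-miR-99a) and -0.11 to 0.021 (ssc-miR-99b). Relative to the family they ran from -0.20 to 0.027 (ssc-let-7a), -0.10 to 0.032 (ssc-let-7d-5p) and -0.25 to 0.040 (ssc-let-7i), and shares of the family from -1.93 to 0.163, -0.0308 to 0.0106 and -5.39 to 0.693 points for the same 3. Neighbour ratios ran from -0.13 to 0.035 (ssc-let-7a to ssc-let-7d-5p), -0.0011 to 0.12 (ssc-let-7d-3p to ssc-let-7f), -0.48 to 0.063 (ssc-let-7e to ssc-miR-125a) and -0.20 to 0.10 (ssc-let-7f to ssc-miR-98).

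With precursors within 50000 bases, 12 pairs held a member and 4 (33.3%) passed, against 38 of all 119 pairs (31.9%). Of the pairs added, ssc-let-7a to ssc-miR-125b did not pass (-0.32, limma adjusted p = 0.181). The added pair that passed has a partner without reads in some library, so its plain ratio is undefined there and is not listed. Its fit used log2(RPM + 1), so in such a library the value rests on the added 1. Ranked by Spearman's rho, 3 of the 5 miRNAs most like the family total and 1 of the 3 most like ssc-let-7c were shared. No paired analysis was possible because the labels do not tie any library to an animal.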
